A study of Mus musculus with 12 samples.

Results

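Brown and white adipocyte marker genes were followed in mouse hearts with reduced ErbB2, without ERRα, or with both changes. The 10 genes listed were Ucp1, Cidea, Elovl3, Adipoq, Fabp4, Plin1, Cfd, Retn, Car3 and Pparg, and 9 of them had at least 1 probe set annotated to that gene alone, among 22180 genes tested. Cfd had none and is not analysed here. Each gene was represented by the probe set chosen by its highest mean over the 12 arrays, a choice that mattered for Car3, with 2 probe sets. The list was drawn up with results of these arrays known: Ucp1 and Car3 were selected on their large difference between ERRα KO and WT hearts, and the interaction of Ucp1 was also known. Those values are therefore given as descriptions, without a test.

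The arrays (Affymetrix Mouse Gene 2.0 ST) held total RNA from powdered frozen hearts of male FVB mice aged 15 weeks. There were 3 hearts each of ErbB2 KI mice, which carry an ErbB2 cDNA knock-in that acts as a hypomorph, ERRα KO mice, which lack Esrra in the whole body, KI:KO mice, which carry both alleles, and WT mice. Both alleles are present in every tissue of the animal, so neither is confined to heart muscle or to fat. All values are log2 RMA values, where a difference of 1 is a doubling of signal, and they say nothing of level between different genes, since each probe set has its own response. Gene positions are those of RefSeq on GRCm38.p6.

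Brown adipocytes burn fuel as heat through UCP1, the uncoupling protein of the inner mitochondrial membrane, and Cidea (a lipid droplet protein) and Elovl3 (an elongase of very long fatty acids) mark the same cells. Adipoq encodes adiponectin and Retn encodes resistin, hormones that fat secretes. Plin1 coats the large lipid droplet of fat cells, Car3 is a carbonic anhydrase abundant in fat and slow muscle, Fabp4 carries fatty acids in fat cells and in capillary endothelium, and Pparg is the nuclear receptor that drives fat cell differentiation. A mouse heart carries fat around the great vessels and in the atrioventricular groove, and in bulk RNA a change in the number of such cells and a change of RNA per cell cannot be told apart.

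The targeted genes followed the labels. Esrra lay between 6.17 and 6.43 on the 6 arrays of ERRα KO and KI:KO hearts, and between 7.40 and 7.74 on the other 6. Erbb2 lay between 5.61 and 5.97 on the 6 arrays of ErbB2 KI and KI:KO hearts, and between 6.39 and 6.80 on the others. The medians of the arrays ran between 4.58 and 4.65, and pairs of arrays correlated at 0.982 to 0.994 across genes. Of the 12 arrays, 4 carried genes of other tissues, picked out after their values were seen. ErbB2 KI replicate 1 had the airway gene Scgb1a1 at 8.95, with the next array at 3.62. ErbB2 KI replicate 2 had the T cell gene Cd8a at 6.70, with the next array at 4.29. ErbB2 KI replicate 3 had the liver gene Serpina1c at 6.61, with the next array at 3.35. KI:KO replicate 3 had the red blood cell gene Slc4a1 at 8.38, with the next array at 5.73. Every array of the ErbB2 KI group was thus marked in this way, and the part of such tissue in the results below was not tested. Values without ErbB2 KI replicates 1 and 2 and KI:KO replicate 3, or without all ErbB2 KI arrays, are given for the 9 genes and, by value or by count, for the calls in the gene lists.

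Promoter sequences were at hand for 6 of the 10 genes (RefSeq, GRCm38.p6, 300 bases, running 250 bases before to 50 after the transcription start), and 4 are shown, those of the measured genes whose means differed most from WT in both single mutants, which leaves out Pparg. Capitals mark AGGTCA, the half-site that ERRα and PPARγ both recognise, searched on both strands.
Ucp1, chr8:83290098-83290397, plus strand: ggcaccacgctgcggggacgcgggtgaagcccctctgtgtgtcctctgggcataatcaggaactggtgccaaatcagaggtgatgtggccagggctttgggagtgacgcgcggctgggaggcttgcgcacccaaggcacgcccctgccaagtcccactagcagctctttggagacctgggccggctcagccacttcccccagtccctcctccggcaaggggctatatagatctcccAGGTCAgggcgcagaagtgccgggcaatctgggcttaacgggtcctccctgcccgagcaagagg
Adipoq, chr16:23146286-23146585, plus strand: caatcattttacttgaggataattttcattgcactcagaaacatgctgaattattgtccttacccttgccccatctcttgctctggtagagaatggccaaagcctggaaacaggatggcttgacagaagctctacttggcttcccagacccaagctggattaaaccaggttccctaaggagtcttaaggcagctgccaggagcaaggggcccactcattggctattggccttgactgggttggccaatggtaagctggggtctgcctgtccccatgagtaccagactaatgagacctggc
Plin1, chr7:79732727-79733026, minus strand: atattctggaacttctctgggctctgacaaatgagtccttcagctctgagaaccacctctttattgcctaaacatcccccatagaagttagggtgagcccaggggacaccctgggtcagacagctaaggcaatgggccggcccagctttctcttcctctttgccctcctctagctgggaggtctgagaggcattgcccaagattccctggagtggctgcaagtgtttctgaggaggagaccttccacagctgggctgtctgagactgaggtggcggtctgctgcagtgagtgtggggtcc
Retn, chr8:3655520-3655819, plus strand: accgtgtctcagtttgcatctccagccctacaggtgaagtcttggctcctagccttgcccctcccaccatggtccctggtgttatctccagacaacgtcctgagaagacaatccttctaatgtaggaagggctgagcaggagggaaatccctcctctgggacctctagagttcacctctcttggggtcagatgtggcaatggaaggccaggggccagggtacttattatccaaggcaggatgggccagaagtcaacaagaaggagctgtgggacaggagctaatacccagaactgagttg
Among these windows, AGGTCA was found in that of Ucp1, on the strand of the gene from 14 to 9 bases before the start. Of the 6 genes with a window, 2 (Ucp1 and Pparg) held the half-site, which 16.3% of all 32851 promoter windows of that length held on either strand. Pparg had several windows, and the share over all counts windows, not genes, so the count and the share cannot be compared directly. The longer ERR element TCAAGGTCA was in 0.423% of all windows, a direct repeat of the half-site with 1 base between the copies, the kind bound by PPARγ with RXR, was in 0.0396%, and neither was in a window of the listed genes. Both longer motifs contain the half-site, and a match or its lack in these letters says nothing of binding.

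Ucp1 (chromosome 8, 83290348 to 83298456) varied the most of the 9 genes. Its log2 values were 9.15, 7.37 and 6.99 in ErbB2 KI hearts, 6.69, 7.93 and 8.21 in ERRα KO hearts, 5.70, 4.44 and 5.38 in KI:KO hearts and 5.58, 4.81 and 4.35 in WT hearts. All 6 hearts with a single mutation lay above all 6 of the KI:KO and WT hearts, and the KI:KO and WT values overlapped. Means were 7.83 ± 1.15 for ErbB2 KI, 7.61 ± 0.81 for ERRα KO, 5.17 ± 0.65 for KI:KO and 4.91 ± 0.62 for WT hearts (SD, n = 3 each). Either allele alone thus went with a signal above that of WT hearts, by 7.57-fold for ErbB2 KI and 6.48-fold for ERRα KO, while KI:KO hearts were 0.26 above WT hearts on the log2 scale.

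Elovl3 (chromosome 19, 46131897 to 46135694) gave a weak signal, below the 40th percentile of mean values at which dim genes were left out in an alternative. Its values were 4.89, 4.03 and 4.11 in ErbB2 KI hearts, 3.59, 4.08 and 4.01 in ERRα KO hearts, 3.93, 3.12 and 3.28 in KI:KO hearts and 3.67, 3.50 and 3.39 in WT hearts. ErbB2 KI hearts lay above both KI:KO and WT hearts, and ERRα KO hearts overlapped with every other group.

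Cidea (chromosome 18, 67343564 to 67367794) took another course. It was at 8.84, 8.34 and 8.18 in ErbB2 KI hearts, at 7.49, 7.54 and 7.42 in ERRα KO hearts, at 7.44, 7.19 and 7.29 in KI:KO hearts and at 8.30, 8.12 and 8.17 in WT hearts. The 6 hearts without ERRα lay below the 6 with it, whichever ErbB2 allele they carried, and the means were 8.45 ± 0.35 for ErbB2 KI, 7.48 ± 0.06 for ERRα KO, 7.31 ± 0.13 for KI:KO and 8.20 ± 0.10 for WT hearts.

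**Figure D1:**
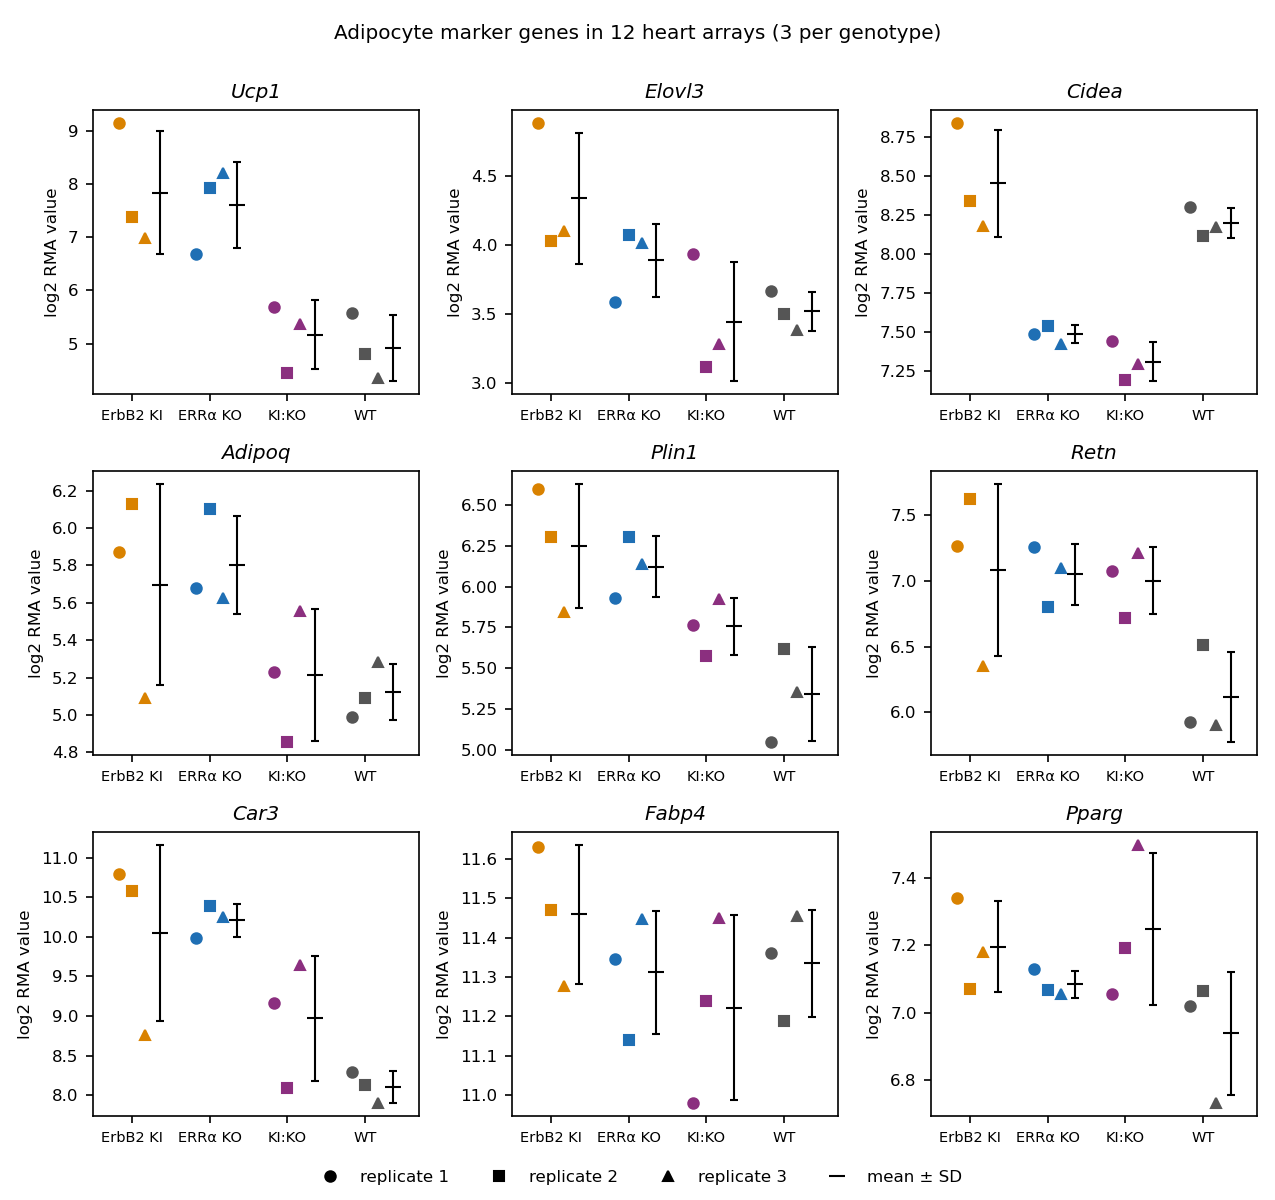
Log2 RMA value (vertical axis) of the 9 measured genes on each of the 12 arrays, by genotype (horizontal axis). Symbols mark the replicate and bars the mean ± SD of 3 hearts. Ucp1 is between 6.69 and 9.15 in ErbB2 KI and ERRα KO hearts and between 4.35 and 5.70 in KI:KO and WT hearts, whereas Cidea is at or below 7.54 in every heart without ERRα.

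Car3 (chromosome 3, 14863538 to 14872381) followed Ucp1 in the mean but not in every heart. It was at 10.79, 10.58 and 8.77 in ErbB2 KI hearts, at 9.98, 10.39 and 10.25 in ERRα KO hearts, at 9.16, 8.10 and 9.65 in KI:KO hearts and at 8.29, 8.14 and 7.90 in WT hearts. ErbB2 KI replicate 3 was well under its group, and KI:KO hearts spread from the WT range to just under the lowest ERRα KO heart. The second probe set of Car3 averaged 6.64 ± 0.72 in ErbB2 KI, 6.51 ± 0.30 in ERRα KO, 5.68 ± 0.57 in KI:KO and 4.97 ± 0.22 in WT hearts, the order of groups differing from the main probe set only in which single mutant was higher.

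Plin1 (chromosome 7, 79721164 to 79732904) was at 6.60, 6.30 and 5.84 in ErbB2 KI hearts, at 5.93, 6.30 and 6.14 in ERRα KO hearts, at 5.77, 5.58 and 5.93 in KI:KO hearts and at 5.05, 5.62 and 5.36 in WT hearts. Both single mutants lay above WT without overlap, and the KI:KO hearts overlapped with WT and with ErbB2 KI hearts. Adipoq (chromosome 16, 23146536 to 23157968) was at 5.87, 6.13 and 5.09 in ErbB2 KI hearts, at 5.68, 6.10 and 5.63 in ERRα KO hearts, at 5.23, 4.85 and 5.56 in KI:KO hearts and at 4.99, 5.09 and 5.29 in WT hearts. Its ERRα KO hearts lay above all KI:KO and all WT hearts, and ErbB2 KI replicate 3 was inside the WT range.

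Retn (chromosome 8, 3655770 to 3659818) differed from the other fat hormone in the KI:KO hearts. It was at 7.27, 7.63 and 6.35 in ErbB2 KI hearts, at 7.26, 6.80 and 7.09 in ERRα KO hearts, at 7.08, 6.72 and 7.21 in KI:KO hearts and at 5.93, 6.52 and 5.90 in WT hearts. All 3 KI:KO hearts lay above WT, as did all 3 ERRα KO hearts, while ErbB2 KI replicate 3 was inside the WT range. Fabp4 (chromosome 3, 10204342 to 10208616) stayed between 10.98 and 11.63 on all 12 arrays, and its 4 group means lay between 11.22 in KI:KO and 11.46 in ErbB2 KI hearts. Pparg (chromosome 6, 115360879 to 115490404) stayed between 6.73 and 7.50, with means of 7.20 ± 0.14 in ErbB2 KI, 7.08 ± 0.04 in ERRα KO, 7.25 ± 0.23 in KI:KO and 6.94 ± 0.18 in WT hearts.

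The means of ErbB2 KI hearts were above those of WT hearts for the fat hormones, the droplet coat Plin1, Car3, Elovl3 and Ucp1, and none of these differences passed the test. To ask how each allele changed these genes, the 4 groups were fitted together in limma over all 22180 genes, with Benjamini-Hochberg adjustment within each comparison and a call at an adjusted p under 0.05. In ErbB2 KI against WT hearts, 0 of the 9 genes were called, where 0.0135% of all genes were. The study's methods used looser cut-offs, a p below 0.05 before adjustment together with a change of 1.2-fold or more. Here and below these were applied to the p of the limma fit, not to the study's analysis of variance. At these cut-offs 6 of the 9 were higher and 0 lower, against 4.30% of all genes in either direction. The estimates were 2.92 for Ucp1 (95% CI 1.68 to 4.16, adjusted p = 0.252), 1.94 for Car3 (0.90 to 2.97, adjusted p = 0.554), 0.97 for Retn, 0.90 for Plin1, 0.82 for Elovl3 and 0.57 for Adipoq. Those of Cidea (0.26), Pparg (0.26) and Fabp4 (0.12) were smaller. The 3 arrays of ErbB2 KI hearts lay wholly above those of WT in 5 of the 9 genes (Ucp1, Elovl3, Plin1, Car3 and Pparg), as they did in 5.59% of all genes. This count and that at the methods' cut-offs include Ucp1 and Car3, which were selected on a contrast with the same WT hearts. The known interaction of Ucp1 also contains this difference, so nothing is read from either count. Without ErbB2 KI replicates 1 and 2 and KI:KO replicate 3, which leaves a single ErbB2 KI heart assumed to vary like the other groups, the estimate stayed at 2.07 for Ucp1 and came to 0.66 for Car3, 0.59 for Elovl3, 0.50 for Plin1, 0.24 for Retn and -0.03 for Adipoq. Without ErbB2 KI replicate 3 alone, Car3 rose by 2.58 and passed (adjusted p = 0.0194).

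In ERRα KO against WT hearts, 3 of the 9 genes were called against 2.35% of all genes, but Ucp1 and Car3 had been selected on this very contrast, so nothing is read from that count. Ucp1 was 2.70 higher and Car3 2.10 higher on the log2 scale. Cidea fell by 0.71 (95% CI -1.03 to -0.39, adjusted p = 0.0258), a call that ended when any of the 6 arrays compared was left out (adjusted p up to 0.116), by the test named in the study's methods, run here on the 2 groups alone and adjusted over all genes, which its cut-offs are not (adjusted p = 0.0566), and over all probe sets (adjusted p = 0.0754). Plin1 was 0.78 higher (adjusted p = 0.0644), Retn 0.94 higher (0.32 to 1.56, adjusted p = 0.140) and Adipoq 0.68 higher (0.14 to 1.22, adjusted p = 0.243), none of which passed. With the 3 ErbB2 KI arrays left out of the fit, Plin1 (adjusted p = 0.0452) and Retn (adjusted p = 0.0481) did pass. ERRα KO hearts lay wholly above WT hearts in 5 of the 9 genes (Ucp1, Adipoq, Plin1, Retn and Car3), against 9.24% of all genes, and 6 of the 9 were past the methods' cut-offs, against 10.4% of all genes. Both counts include Ucp1 and Car3, so nothing is read from them either.

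In KI:KO against WT hearts, 1 of the 9 genes was called, where 5.60% of all genes were. Cidea fell by 0.89 (95% CI -1.21 to -0.57, adjusted p = 0.00416), and the call was kept without each array in turn (adjusted p up to 0.0233) but not by the methods' test (adjusted p = 0.0644). Ucp1 differed by 0.26 (-0.98 to 1.49, adjusted p = 0.890), an interval that still allows a change of over 2-fold in Ucp1 signal. Retn was 0.89 higher (0.27 to 1.51, adjusted p = 0.106) and passed with the ErbB2 KI arrays left out (adjusted p = 0.0342). Adipoq (0.09) and Elovl3 (-0.08) were close to WT. At the methods' cut-offs 3 of the 9 were counted, against 14.6% of all genes.

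The comparison of KI:KO with ErbB2 KI hearts asks what loss of ERRα does where ErbB2 is already low, and uses neither group of the contrast on which Ucp1 and Car3 were selected. Here 2 of the 9 genes were called and both were lower, where 3.91% of all genes were called. Cidea fell by 1.15 (95% CI -1.47 to -0.83, adjusted p = 0.00133) and kept its call without each array in turn but not by the methods' test (adjusted p = 0.194). Ucp1 fell by 2.66 (-3.90 to -1.43, adjusted p = 0.0219), a value that enters the interaction already known for this gene and so is no independent evidence. The Ucp1 call ended by the methods' test (adjusted p = 0.301) and without ErbB2 KI replicate 1 (-2.01, adjusted p = 0.0716) or KI:KO replicate 2 (-2.30, adjusted p = 0.0852). Without ErbB2 KI replicates 1 and 2 and KI:KO replicate 3 both calls ended, with -0.86 for Cidea (adjusted p = 0.0508) and -1.92 for Ucp1 (adjusted p = 0.321). Elovl3 was -0.90 (adjusted p = 0.0740) and passed without KI:KO replicate 1 (adjusted p = 0.0343), and Car3 was -1.08 (adjusted p = 0.297) and passed without ErbB2 KI replicate 3 (adjusted p = 0.0267). KI:KO hearts lay wholly below ErbB2 KI hearts in 3 of the 9 genes (Ucp1, Elovl3 and Cidea), against 10.6% of all genes, and 5 of the 9 were lower at the methods' cut-offs, against 13.0% of all genes in either direction. Both counts include Ucp1, whose known interaction contains this difference, so nothing is read from them.

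KI:KO against ERRα KO hearts shows the ErbB2 KI allele where ERRα is absent. None of the 9 genes was called (0 of 9 in limma, with 3 at the methods' cut-offs, all lower), where 0.329% of all genes were called and 8.45% were past the methods' cut-offs. Ucp1 was -2.44 (95% CI -3.67 to -1.20, adjusted p = 0.106), Car3 -1.24 (-2.27 to -0.20, adjusted p = 0.361) and Adipoq -0.59 (-1.13 to -0.05, adjusted p = 0.427). KI:KO hearts lay wholly below ERRα KO hearts in these 3 genes and in Plin1, 4 of 9 against 7.63% of all genes. This count and that at the methods' cut-offs include Ucp1 and Car3, which were selected on their difference between these same ERRα KO hearts and WT. The known interaction of Ucp1 also contains the difference described here, so nothing is read from either count. Cidea differed by -0.18 (-0.50 to 0.14) and Retn by -0.05 (-0.67 to 0.57).

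The interaction asks whether the alleles together give another value than the sum of their separate effects. None of the 9 genes was called (0 of 9 in limma), where 0.00902% of all genes were, while 6 of the 9 were past the methods' cut-offs, all lower, against 6.97% of all genes. Nothing is read from that count, since the interaction of Ucp1 was known and that of Car3 contains the difference between ERRα KO and WT hearts on which Car3 was selected. The interaction was -5.36 for Ucp1 (95% CI -7.11 to -3.61, a description). It was -3.18 for Car3 (-4.64 to -1.71, also a description), -1.27 for Plin1 (-1.87 to -0.67, adjusted p = 0.301), -1.27 for Elovl3 (adjusted p = 0.430), -1.16 for Adipoq (adjusted p = 0.498) and -1.02 for Retn (adjusted p = 0.639). The interactions of Cidea (-0.43, -0.89 to 0.02), Fabp4 (-0.21) and Pparg (-0.09) were smaller. The 5 comparisons share groups, so their values for a gene are not independent of each other.

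**Figure D2:**
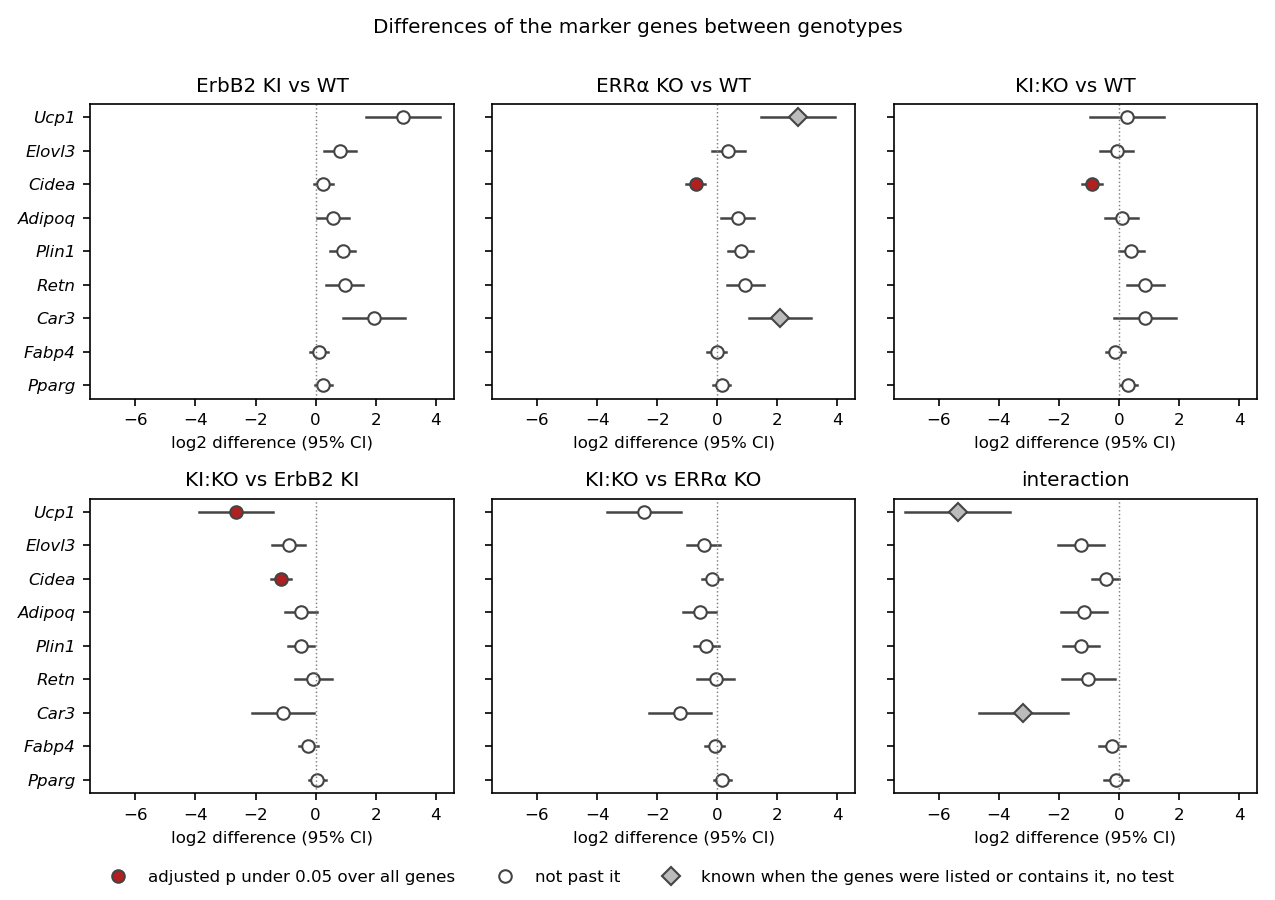
Log2 differences (horizontal axis) of the 9 genes in the 5 comparisons and the interaction, with 95% confidence intervals from the limma fit of all 12 arrays. Filled circles passed an adjusted p under 0.05 over all genes and diamonds are values that were known when the genes were listed or contain such a value, shown without a test. Cidea is below 0 in the 3 comparisons that remove ERRα, and Ucp1 lies at 2.92 in ErbB2 KI and 2.70 in ERRα KO against WT and at 0.26 in KI:KO against WT.

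The level of these genes differed most between hearts in the ErbB2 KI group. ErbB2 KI replicate 1 was the highest of the 12 arrays in 6 of the 9 genes and among the top 3 in all 9, and ErbB2 KI replicate 2 was among the top 3 in 6. ErbB2 KI replicate 3 was among the top 3 in 1 gene only, Elovl3. The median over the 9 genes, each less its WT mean, was 1.15, 0.96 and 0.24 in the ErbB2 KI hearts, 0.56, 0.68 and 0.51 in the ERRα KO hearts, 0.41, -0.10 and 0.47 in the KI:KO hearts and 0.08, -0.02 and -0.13 in the WT hearts. By this median the ERRα KO hearts were alike, whereas the ErbB2 KI hearts ranged from near the WT level to the highest of all. Single genes could still vary, as Ucp1 ran from 6.69 to 8.21 in ERRα KO hearts. After group means were removed, Adipoq and Car3 still moved together (Pearson r = 0.858 over 12 arrays), as did Ucp1 with Elovl3 (r = 0.891) and with Cidea (r = 0.794). The arrays share their RNA between genes, and these values are descriptions.

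Other genes of brown fat were read from a list without the 9 genes. In that list 14 of 17 genes were measured, and its median difference against WT was 0.03 for ErbB2 KI hearts, 0.07 for ERRα KO hearts and -0.10 for KI:KO hearts, where the medians over all genes lay within 0.01 of 0. In ERRα KO against WT hearts 1 of the 14 was called, where 2.35% of all genes were. In KI:KO hearts 1 was called higher and 1 lower against WT, and likewise against ErbB2 KI hearts. The shares of all genes called there were 5.60% and 3.91%. Ppargc1a, a coactivator of ERRα that is also made by heart muscle, rose by 0.67 in ERRα KO hearts (adjusted p = 0.0326), a call that ended without ERRα KO replicate 1 or 3 or any of the 3 WT arrays (adjusted p up to 0.140). Dio2, the deiodinase that activates thyroid hormone, rose in KI:KO hearts by 0.88 against WT (adjusted p = 0.0178, ended without WT replicate 1 or 3 or KI:KO replicate 2) and by 1.14 against ErbB2 KI hearts (adjusted p = 0.00588). With the mean of its probe sets Dio2 was 0.38 higher against WT and did not pass (adjusted p = 0.104), and without ErbB2 KI replicates 1 and 2 and KI:KO replicate 3 neither call of Dio2 passed (0.69, adjusted p = 0.0616 against WT; 1.03, adjusted p = 0.101 against ErbB2 KI). Ucp3, a homologue of Ucp1 found in muscle, fell by 1.05 in KI:KO against WT hearts (adjusted p = 0.0365, ended by leaving out any of 6 arrays in turn). Slc27a2, a fatty acid transporter, fell by 0.78 in KI:KO against ErbB2 KI hearts (adjusted p = 0.0366, ended by leaving out any of 7 arrays in turn). Its values lay between 3.01 and 4.32 on all arrays, below the cut-off of 4.67 for dim genes. Slc27a2 was at -0.43 with the mean of its probe sets (adjusted p = 0.0566) and at -0.56 without ErbB2 KI replicates 1 and 2 and KI:KO replicate 3 (adjusted p = 0.420). None of the list was called in ErbB2 KI against WT (0 of 14 in limma, 2 at p under 0.05 before adjustment) or in KI:KO against ERRα KO hearts (0 of 14, 3 at p under 0.05 before adjustment). Of all genes, 0.0135% and 0.329% were called in these 2 comparisons.

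The list of genes shared by brown and white fat, again without the 9 genes, had 21 of 22 measured, and it held genes that went different ways. Cidec, which makes lipid droplets grow in fat cells, was at 6.90, 6.42 and 5.96 in ErbB2 KI hearts, at 6.43, 6.49 and 6.19 in ERRα KO hearts, at 5.95, 5.46 and 6.40 in KI:KO hearts and at 4.77, 5.14 and 5.69 in WT hearts. All 6 hearts with a single mutation were above WT, with estimates of 1.23 in ErbB2 KI (adjusted p = 0.504) and 1.17 in ERRα KO hearts (adjusted p = 0.0583) that did not pass. In ERRα KO against WT hearts 3 genes of the list fell and 0 rose, where 2.35% of all genes were called in either direction. They were Dgat2, the last enzyme of triglyceride synthesis, by 1.04 (adjusted p = 0.000657), the purinergic receptor gene P2rx5 by 0.48 (adjusted p = 0.0257) and Mrap, which carries melanocortin receptors to the membrane, by 0.48 (adjusted p = 0.0488). The call of Dgat2 was kept without each array in turn, and those of P2rx5 and Mrap were not (adjusted p up to 0.110 for P2rx5 and 0.182 for Mrap). Without ErbB2 KI replicate 3, 2 genes of the list rose, with no share of all genes in that fit given beside them.

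In KI:KO hearts Dgat2, the glycerol channel gene Aqp7 and the amino acid transporter gene Slc36a2 fell against WT by 0.89, 0.98 and 0.58 (adjusted p = 0.00113, 0.00119 and 0.00365), and each call was kept without every single array. Cebpa, a factor of fat cell differentiation, rose by 0.64 (adjusted p = 0.0365, ended by leaving out any of 7 arrays in turn, up to 0.137). Cebpa was higher by a similar amount in the single mutants, by 0.56 in ErbB2 KI (adjusted p = 0.679) and 0.63 in ERRα KO hearts (adjusted p = 0.0653), which did not pass. Against ErbB2 KI hearts 5 of the 21 fell and 0 rose, where 3.91% of all genes were called in either direction. Among the 5, Aqp7 fell by 0.93 (adjusted p = 0.00229), Slc36a2 by 0.70 (adjusted p = 0.00163) and Trarg1, which takes part in GLUT4 traffic in fat, by 0.58 (adjusted p = 0.0194). That count was 3 without ErbB2 KI replicate 1 or 2 or KI:KO replicate 2. None of the 5 (0 in limma) passed without ErbB2 KI replicates 1 and 2 and KI:KO replicate 3 together, where Aqp7 was at -1.07 (adjusted p = 0.0722), Slc36a2 at -0.62 (adjusted p = 0.116) and Trarg1 at -0.53 (adjusted p = 0.210). The same omission ended the calls against ERRα KO hearts given next (adjusted p = 0.0755 for Aqp7 and 0.0733 for Slc36a2). Aqp7 and Slc36a2 also fell against ERRα KO hearts, by 0.78 and 0.60 (adjusted p = 0.0321 and 0.0216), and the count of 2 became 0 without KI:KO replicate 1 or any of the 3 ERRα KO arrays. In that comparison 0.329% of all genes were called in either direction. The median difference of the list against WT was 0.10 for ErbB2 KI hearts, -0.02 for ERRα KO hearts and -0.12 for KI:KO hearts, and it was -0.26 for KI:KO against ErbB2 KI hearts.

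Genes of fatty acid synthesis, which is active in fat and liver and low in heart, included Fasn and Elovl6. Their values over the arrays were the most like those of Ucp1, though not once group means were removed. Fasn, the fatty acid synthase, was at 10.21, 9.90 and 8.36 in ErbB2 KI hearts, at 8.37, 8.74 and 8.87 in ERRα KO hearts, at 7.61, 7.01 and 7.84 in KI:KO hearts and at 7.48, 7.55 and 7.26 in WT hearts. All hearts with a single mutation lay above all KI:KO and WT hearts. Scd1, the stearoyl-CoA desaturase, was at 10.37, 9.95 and 8.74 in ErbB2 KI hearts, at 8.55, 8.94 and 9.08 in ERRα KO hearts, at 7.93, 8.01 and 8.42 in KI:KO hearts and at 7.80, 8.67 and 7.85 in WT hearts, where WT replicate 2 overlapped with ERRα KO hearts.

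Of the 18 genes of fatty acid and triglyceride synthesis measured of 19 listed, 6 fell and 0 rose in KI:KO against ErbB2 KI hearts. In that comparison 3.91% of all genes were called in either direction. Fasn fell by 2.01 (adjusted p = 0.0129), Scd1 by 1.57 (adjusted p = 0.0317), the acetyl-CoA carboxylase gene Acaca by 0.99 (adjusted p = 0.0454), the ATP citrate lyase gene Acly by 0.75 (adjusted p = 0.0422), Dgat2 by 0.92 (adjusted p = 0.00133) and the acyltransferase gene Agpat2 by 0.49 (adjusted p = 0.0194). The count was 1 without ErbB2 KI replicate 1 or 2 or KI:KO replicate 2 and 8 without ErbB2 KI replicate 3. Without ErbB2 KI replicates 1 and 2 and KI:KO replicate 3 together 0 of the 6 passed, and the estimates came to -1.05 for Fasn, -0.78 for Scd1, -0.46 for Acaca, -0.24 for Acly, -0.89 for Dgat2 and -0.34 for Agpat2 (adjusted p between 0.0873 and 0.510). In ErbB2 KI against WT hearts 0 of 18 passed in limma, where 0.0135% of all genes did. Of the 18, 8 were higher at p under 0.05 before adjustment, and 6 passed without ErbB2 KI replicate 3. Fasn was 2.07 higher with all arrays kept (adjusted p = 0.210), Scd1 1.58, Elovl6 1.35 and Acaca 1.12. In ERRα KO against WT hearts only Dgat2 passed, with 3 more that rose without ErbB2 KI replicate 3, while Pck1, which makes the glycerol backbone in fat, was 1.42 higher (adjusted p = 0.0928) and Fasn 1.23 higher (adjusted p = 0.152). In KI:KO against WT hearts Dgat2 and Acacb fell, Acacb by 0.34 (adjusted p = 0.0463), a call that ended without any 1 of the 12 arrays. For the interaction 0 of 18 passed in limma, 9 were lower at p under 0.05 before adjustment and 6 passed without ErbB2 KI replicate 3, with Fasn at -3.24 (adjusted p = 0.159). The shares of all genes called without single arrays are not given, so nothing is read from these changes of count.

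**Figure D3:**
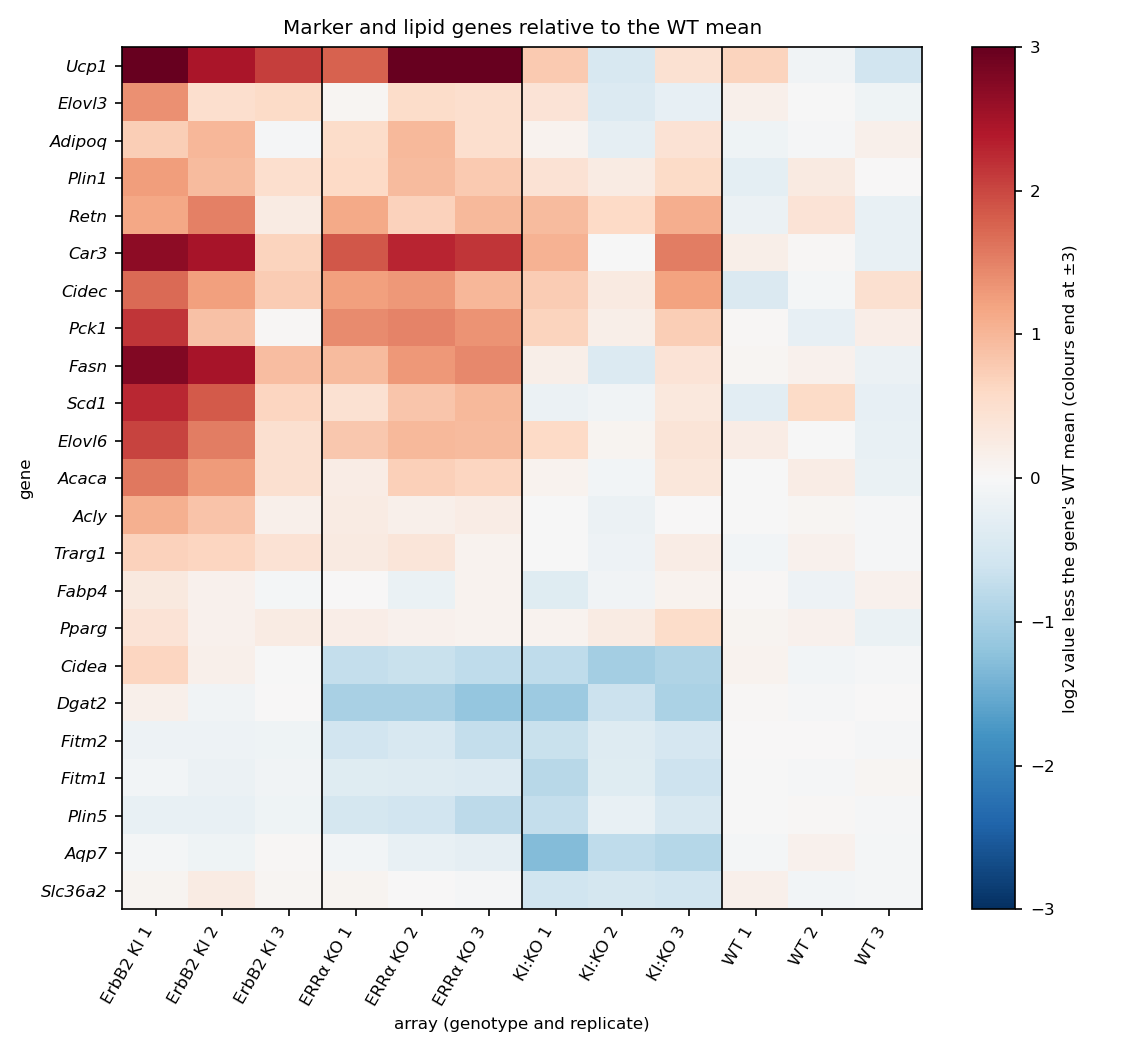
Log2 value less the gene's WT mean (colour, ending at ±3) for the 9 genes and named genes of the lists (rows) on the 12 arrays (columns). Most rows from Ucp1 to Trarg1 are highest in ErbB2 KI replicate 1, where Fasn is at 10.21, and the rows from Cidea to Plin5 are below WT in every heart without ERRα, with Dgat2 falling by 1.04 in ERRα KO hearts.

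Genes of the lipid droplet and of lipolysis, of which 14 of 15 outside the 9 genes were measured, included some that were low in hearts without ERRα, as Cidea was. In ERRα KO against WT hearts 3 of them fell and 0 rose, where 2.35% of all genes were called in either direction. They were Fitm2, which helps droplets form, by 0.59 (adjusted p = 0.00643), Plin5, the droplet coat of oxidative muscle, by 0.63 (adjusted p = 0.0170) and Abhd5, the activator of the lipase ATGL, by 0.38 (adjusted p = 0.0416). Fitm2 kept its call without each array in turn. Plin5 lost it without ERRα KO replicate 3 or any of the 3 WT arrays, and Abhd5 without any of 11 arrays. In KI:KO against WT hearts Fitm1 fell by 0.60 (adjusted p = 0.00608), Fitm2 by 0.52 (adjusted p = 0.00724) and Plin5 by 0.47 (adjusted p = 0.0374, ended by leaving out any of 9 arrays in turn). Fitm2 was at 9.57, 9.68 and 9.43 in ERRα KO hearts and at 9.49, 9.76 and 9.66 in KI:KO hearts, against 10.17, 10.17 and 10.11 in WT hearts. All 6 hearts without ERRα were below all WT hearts. The list's median difference against WT was -0.11 for ERRα KO hearts, -0.11 for KI:KO hearts and 0.03 for ErbB2 KI hearts, with 0 of 14 called in the last comparison (limma, 1 at p under 0.05 before adjustment).

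Among nuclear receptors of the PPAR family and their coactivators, with 12 of 14 genes measured besides Pparg, 3 rose and 1 fell in KI:KO against WT hearts. In that comparison 5.60% of all genes were called in either direction. Cebpb rose by 0.90 (adjusted p = 0.00154) and Cebpd by 0.78 (adjusted p = 0.00957), both factors of early fat cell differentiation that also answer to inflammation, and these calls were kept without each array in turn. Nrip1, a corepressor of ERRα and of Ucp1 in mouse fat, fell by 0.40 (adjusted p = 0.0265, ended without WT replicate 1 or 2 or any KI:KO array). Cebpd also rose by 0.99 against ErbB2 KI hearts (adjusted p = 0.00364), and was at 0.64 without ErbB2 KI replicates 1 and 2 and KI:KO replicate 3 (adjusted p = 0.189). Across the lists there were 35 calls outside the 9 genes, counting each gene once per comparison. By the methods' test as run here, 34 of the 35 had an adjusted p above the threshold, the exception being Dgat2 in ERRα KO against WT hearts, and 22 did not pass without ErbB2 KI replicates 1 and 2 and KI:KO replicate 3.

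Cell type markers were read beside these genes. Of the 9 genes used to define brown fat, the 6 outside the list (Cox8b, Dio2, Prdm16, Zic1, Ebf2 and Otop1) had a mean between 6.45 and 6.72 in ErbB2 KI, between 6.53 and 6.81 in ERRα KO, between 6.46 and 6.70 in KI:KO and between 6.49 and 6.55 in WT hearts, ranges that overlapped. Zic1, which marks classical brown fat, stayed between 3.30 and 4.40 on all arrays, below the cut-off of 4.67 for dim genes. The 6 remaining markers of any adipocyte (Cidec, Lep, Lipe, Plin4, Cebpa and Aqp7) had a mean between 6.41 and 6.81 in ErbB2 KI, between 6.53 and 6.66 in ERRα KO, between 6.27 and 6.42 in KI:KO and between 6.26 and 6.38 in WT hearts. All ERRα KO hearts were thus above all WT and KI:KO hearts, although Aqp7 and Plin4 are also made by heart muscle. In KI:KO against ERRα KO hearts, Aqp7 alone of these genes lay wholly below (-0.78). Cidec (-0.43), Lep (-0.35), Lipe (-0.13) and Cebpa (0.004) overlapped there, and Plin4 went the other way (0.19). The separation from KI:KO hearts therefore leans on Aqp7. With Aqp7 left out, the mean of the other markers was lower in ERRα KO replicate 3 than in KI:KO replicate 1. Leptin (Lep), made almost only by fat cells, was between 3.24 and 4.80 on every array, and the groups overlapped. Each group mean of Lep was below the same cut-off, so little can be read from the levels of Lep and Zic1. Markers of the epicardium and mesothelium, the layer next to fat on the heart's surface, lay between 6.04 and 6.37 in ErbB2 KI, between 5.89 and 6.16 in ERRα KO, between 6.24 and 6.47 in KI:KO and between 6.07 and 6.31 in WT hearts, and 0 of 7 were called in any comparison (limma, at most 3 at p under 0.05 before adjustment, in KI:KO against ERRα KO hearts and in the interaction).

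The means of 8 thymus and lymphocyte genes stood at 5.90 in ErbB2 KI replicate 2, against at most 4.63 on the other arrays. Atrial cardiomyocyte genes (5) had means between 10.79 and 11.04 in ErbB2 KI, between 10.69 and 10.92 in ERRα KO, between 10.67 and 10.97 in KI:KO and between 10.20 and 10.79 in WT hearts, so that they lay high in the single mutants, as several of the 9 genes did, and in KI:KO hearts too, and 0 of 5 were called in any comparison (limma, up to 3 at p under 0.05 before adjustment). The means of 10 cardiomyocyte genes were between 11.43 and 11.55 in KI:KO hearts and between 11.66 and 11.70 in WT hearts. Of these, 2 of 10 were called lower, where 5.60% of all genes were called in either direction. The means of 5 lung genes stood at 5.54 in ErbB2 KI replicate 1, against at most 4.45. Macrophage genes were called higher in 7 of 9 cases in KI:KO against WT hearts, where the same 5.60% of all genes were called. Their means lay between 7.93 and 8.11 in KI:KO, between 7.08 and 7.27 in WT and between 7.36 and 7.94 in ERRα KO hearts. What part fat adhering to the heart, these other tissues, the share of atrium in the sample or the cells of the heart itself had in the levels of the 9 genes was not tested.

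**Figure D4:**
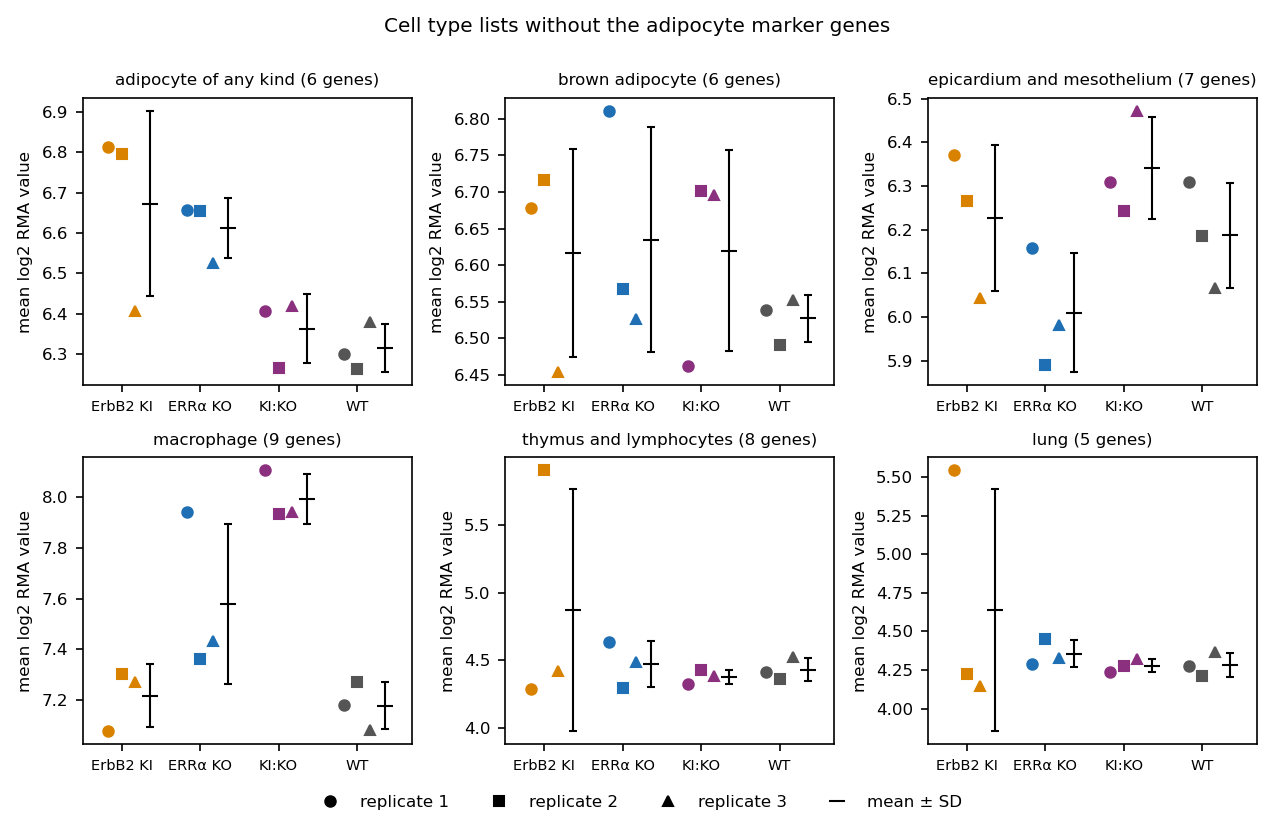
Mean log2 RMA value (vertical axis) of 6 cell type lists on each array, without the 9 adipocyte genes, by genotype, with symbols for the replicate and bars for the mean ± SD of 3 hearts. The thymus list is at 5.90 in ErbB2 KI replicate 2 and the lung list at 5.54 in ErbB2 KI replicate 1, above all other arrays.

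Over the 12 arrays, the 5 genes most like Ucp1 by Pearson r were Fasn (0.909), Elovl6 (0.902), Elovl3 (0.884), Car3 (0.876) and Ngfr (0.866). Fasn and Elovl6 belong to the other gene lists, while Elovl3 and Car3 are themselves among the marker genes followed here. Ucp1 and Car3 were both selected on their difference between ERRα KO and WT hearts, so their likeness is in part built in. Those most like Adipoq were Svs4 (0.951), Car3 (0.907), Tmem45b (0.904), Gm20751 (0.891) and Tescl (0.888). Of these, Car3 is again a marker gene, and none belongs to the other gene lists. When each group's mean was removed first, the 5 genes most like Ucp1 were 4930546C10Rik (0.940), P4htm (0.916), Adtrp (0.911), Ppp2r1b (0.911) and Ftx (0.909), and those most like Adipoq were Cbr3 (0.948), Cep295 (0.931), Gm2176 (0.930), Phka2 (0.929) and Ermap (0.924), with 0 of the 5 in the lists for either gene. These values are descriptions, drawn as the highest among 22180 genes over 12 arrays that share their groups.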

How the data were processed

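Heart RNA was hybridised to Affymetrix Mouse Gene 2.0 ST arrays, 3 per genotype. The authors normalized the arrays by RMA (Affymetrix Expression Console 1.4.1), and the deposited table holds log2 values, used as they are. Of 41345 probe sets, 23521 were annotated to 1 gene, 1820 to several and 16004 to none, which gave 22180 genes, each taken at its probe set of highest mean. Arrays give no read depth, and their number limits the precision.

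The 4 group means were fitted in limma 3.58.1 (R 4.3.3; 8 residual and 3.81 prior degrees of freedom), two-sided, with Benjamini-Hochberg adjustment over all genes. The smallest exact permutation p for 3 against 3 arrays is 0.1. The fit was tested on simulated data. The hearts are labelled as biological replicates.

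The members and gene lists were chosen with earlier results of these data known. Genes were named by rule: the members in every array, up to 4 genes of smallest p per list and comparison with any called, and the 5 most like Ucp1 and Adipoq. Alternatives were the methods' test (one-way analysis of variance of the groups compared, with the same adjustment, which the methods do not state), only the groups compared, dim genes left out (13308 genes above 4.67 kept), all probe sets, mean probe sets, quantile normalization, median centring, intensity trend, array weights, a replicate block, the methods' cut-offs and leaving out each array. 2 were added after seeing the data. Counts in the lists at p under 0.05 before adjustment, without a fold cut-off, have no share over all genes beside them, so nothing is read from them. Counts of calls without an array or under another fit have no such share either, and nothing is read from their size. Plots used matplotlib 3.10.9 under Python 3.11.15.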

Additional observations from a re-analysis of the deposited data

Results flagged for a closer look

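In 3 of the 9 genes the arrays moved opposite ways under the same allele. Ucp1 and Car3 among them were selected on their difference between ERRα KO and WT hearts. The share of all genes with such an order was not counted, so nothing is read from the count. For Ucp1, every ErbB2 KI heart was above every WT heart, and every KI:KO heart was below every ERRα KO heart. The ERRα KO allele did likewise, with every ERRα KO heart above WT and every KI:KO heart below every ErbB2 KI heart. The interaction of Ucp1, already known when the genes were listed, was -5.36 on the log2 scale.

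For Car3 the ErbB2 KI allele gave the same opposite order, with an interaction of -3.18, which contains the difference on which Car3 was selected and is given without a test. For Plin1 it was -1.27, which did not pass over all genes in limma (adjusted p = 0.301). Groups of 3 arrays are too small for a check of single outlying arrays.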

How the results depend on the processing

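No direction of a called difference turned under any alternative run. In ERRα KO against WT hearts, 3 genes were called; the count was 1 by the methods' test, 0 over all probe sets, 5 with array weights, 5 without the 3 ErbB2 KI arrays (an alternative added after seeing the data), 6 at the methods' cut-offs and 0 to 5 without each array in turn (0 without ERRα KO replicate 2 or 3 or any of the 3 WT arrays). In KI:KO against ErbB2 KI hearts, 2 were called; the count was 0 by the methods' test, 1 with only the groups compared, 1 over all probe sets, 0 without ErbB2 KI replicates 1 and 2 and KI:KO replicate 3 (also added), 5 at the methods' cut-offs and 1 to 3 without each array. In KI:KO against WT hearts, 1 was called, with 0 by the methods' test, 2 with an intensity trend, 2 without the ErbB2 KI arrays, 3 at the methods' cut-offs and 1 to 2 without each array. In ErbB2 KI against WT hearts, 0 became 6 at the methods' cut-offs and 0 to 1 without each array. In KI:KO against ERRα KO hearts, 0 became 1 with an intensity trend and 3 at the methods' cut-offs, and the count stayed at 0 without each array. For the interaction, 0 became 1 with dim genes left out, 1 with an intensity trend, 6 at the methods' cut-offs and 0 to 2 without each array. The cause of these shifts was not tested. The shares of all genes called under each alternative fit are not given beside these counts, and Ucp1 and Car3 were selected on ERRα KO against WT hearts. The counts show only how far the calls depend on the processing. Quantile normalization and median centring changed no count of the 9 genes. The replicate numbers do not pair the hearts (18 same-numbered pairs, r = -0.19 to 0.20), and a fit with that number as a replicate block gave 2 calls in ERRα KO against WT hearts, and the same counts in the other comparisons. Some arrays of mixed number did go together, with r of 0.18 to 0.25 in every pair of a set. That set held replicate 2 of WT and ERRα KO hearts and replicate 3 of ErbB2 KI and KI:KO hearts. A block by number cannot describe such a set, and its cause was not tested. Of the 35 calls in the other gene lists, 20 did not pass with only the groups compared and 15 with the replicate block. Elovl3, Lep, Zic1 and Slc27a2 are near the dim end of the arrays, which limits what can be read from them.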

Other observations

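Genes of other tissues on single arrays, chosen after their values were seen, were not limited to those given above. ErbB2 KI replicate 1 also had Bpifa1 at 6.26 (next array 2.88) and Scgb3a2 at 3.97 (next 2.38). ErbB2 KI replicate 2 also had Cd4 at 7.21 (next 5.09), Cd3e at 7.21 (next 5.56) and Dntt at 5.51 (next 3.71). ErbB2 KI replicate 3 also had Alb at 6.12 (next 3.92) and Mup3 at 5.67 (next 3.12), and KI:KO replicate 3 also had Trim10 at 6.10 (next 4.51) and Slc25a37 at 9.66 (next 7.54).

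Retnla, a member of the resistin family made by fat and by macrophages, was at 4.79, 5.58 and 6.50 in KI:KO hearts, against 7.29, 6.79 and 7.22 in ERRα KO hearts, which did not pass over all genes (limma, -1.47, adjusted p = 0.107). Its KI:KO hearts lay below those of every other group except for an overlap with ErbB2 KI hearts, the lowest of which was at 6.42.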
